A study of Homo sapiens with 4 samples.

Results

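The genes of mitosis and chromosome segregation were followed as a list of 43 human genes, out of 25006 genes that the probes of the arrays could be matched to by name. A gene entered the list by its symbol, for a known role between the entry into mitosis and the separation of the daughter cells, and the rule uses no measured value, although earlier results of these data were known when the list was drawn up. Each gene is represented by the probe with the highest mean signal over the arrays. All 43 genes were on the arrays, and their probes were well above background on all 4 of them.

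The cells were HML58-3, a derivative of the HCT116 colon cancer line that reports loss of methylation through luciferase placed behind a methylated marker promoter. Cells of the 4 conditions were treated with mock, with decitabine (DAC), or with the DAC prodrugs OR-2003 or OR-2100, each drug at 1 μM, from day 1 until collection on day 5. DAC is a cytidine analog that is built into DNA and traps DNA methyltransferases, so that methylation is lost as cells divide. Each condition was measured on 1 Agilent array of a single colour. There is therefore no replicate check of any difference between conditions, no p-value is given, and all counts and medians describe these 4 cultures only. The line is a derivative of 1 cell line, so that nothing here extends to other cells.

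In mitosis, cyclin B and CDK1 drive the cell into division, condensins and topoisomerase II shape the chromosomes, and kinetochores built on CENPA chromatin tie them to the spindle. The spindle checkpoint holds back the anaphase-promoting complex until every kinetochore is attached, after which securin and cyclin B are degraded, separase opens cohesin, and the central spindle guides cytokinesis. Many of these genes are transcribed late in the cell cycle, when the DREAM repressor leaves their promoters and MYBL2 and FOXM1 act there. The protein LIN54 of these complexes reads the cell cycle homology region, whose usual letters are TTTGAA, and NF-Y reads CCAAT boxes.

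Because these sites are what the promoters of such genes are known for, the windows of the members were searched for them. The RefSeq promoter table (GRCh38.p14, 250 bases before to 50 after each start site) held 37 of the 43 members, in 46 windows. AURKA, BUB3, TTK, TPX2, BIRC5 and UBE2C were not in it. The windows printed here are those of the 3 members with the lowest and the 3 with the highest mean difference from mock among the 37, given 5′ to 3′ on the strand of the gene. Capitals mark TTTGAA or TTCAAA, its other strand, and CCAAT or ATTGG, its other strand. The lowest were KIF18A (chr11:28108107-28108406, minus strand), NCAPG (chr4:17810729-17811028, plus strand) and CDC25C (chr5:138331828-138332127, minus strand). CDC25C has 4 windows, of which 2 hold TTTGAA, and the first of these is shown.
KIF18A: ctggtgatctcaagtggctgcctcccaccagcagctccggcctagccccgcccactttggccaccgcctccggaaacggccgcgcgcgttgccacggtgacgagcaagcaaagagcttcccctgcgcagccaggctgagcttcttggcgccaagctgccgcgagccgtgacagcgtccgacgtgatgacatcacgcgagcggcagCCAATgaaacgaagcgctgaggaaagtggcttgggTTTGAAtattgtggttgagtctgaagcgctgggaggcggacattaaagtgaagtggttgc
NCAPG: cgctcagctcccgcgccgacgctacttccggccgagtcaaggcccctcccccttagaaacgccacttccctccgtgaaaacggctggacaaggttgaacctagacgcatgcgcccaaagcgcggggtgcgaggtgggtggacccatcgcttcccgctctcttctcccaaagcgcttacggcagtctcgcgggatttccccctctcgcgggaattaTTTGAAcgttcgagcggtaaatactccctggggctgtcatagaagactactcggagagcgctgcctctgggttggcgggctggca
CDC25C: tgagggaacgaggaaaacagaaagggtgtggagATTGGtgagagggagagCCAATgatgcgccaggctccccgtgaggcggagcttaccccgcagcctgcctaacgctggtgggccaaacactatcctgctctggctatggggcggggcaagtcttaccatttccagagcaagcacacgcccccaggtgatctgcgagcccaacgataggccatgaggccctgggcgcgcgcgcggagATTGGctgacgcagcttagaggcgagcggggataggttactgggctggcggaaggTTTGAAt
The highest were CDC20 (chr1:43358731-43359030, plus strand), INCENP (chr11:62123761-62124060, plus strand) and ANLN (chr7:36389612-36389911, plus strand).
CDC20: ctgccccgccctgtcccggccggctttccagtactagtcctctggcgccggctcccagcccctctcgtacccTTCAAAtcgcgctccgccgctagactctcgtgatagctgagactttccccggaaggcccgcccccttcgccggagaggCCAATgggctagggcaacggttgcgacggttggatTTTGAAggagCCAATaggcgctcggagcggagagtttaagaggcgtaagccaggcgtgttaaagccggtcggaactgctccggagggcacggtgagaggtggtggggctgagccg
INCENP: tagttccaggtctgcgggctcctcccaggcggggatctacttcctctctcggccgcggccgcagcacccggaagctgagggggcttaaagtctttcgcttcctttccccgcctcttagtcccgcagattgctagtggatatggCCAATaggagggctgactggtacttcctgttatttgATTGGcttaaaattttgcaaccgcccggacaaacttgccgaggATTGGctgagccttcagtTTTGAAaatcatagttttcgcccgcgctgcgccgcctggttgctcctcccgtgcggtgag
ANLN: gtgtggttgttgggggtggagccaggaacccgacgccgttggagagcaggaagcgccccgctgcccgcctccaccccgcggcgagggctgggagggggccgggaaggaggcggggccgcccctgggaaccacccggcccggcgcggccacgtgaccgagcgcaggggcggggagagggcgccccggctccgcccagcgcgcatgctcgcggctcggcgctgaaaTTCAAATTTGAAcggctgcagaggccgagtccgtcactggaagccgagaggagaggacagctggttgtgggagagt
All 6 printed windows hold TTTGAA, and of these genes only CDC25C had more than 1 window to choose from. In KIF18A, among the lowest genes, and in INCENP, among the highest, it begins at base -10 from the start site, in NCAPG at -35, in CDC20 at -178 and -65, in ANLN at -26 and -20, and in CDC25C at base 44 after the start. CCAAT letters stand at -45 in KIF18A, at -100 and -55 in CDC20, and at 3 places each in CDC25C and INCENP. None was found in the windows of NCAPG and ANLN.

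Over the whole list, TTTGAA on either strand was present in 27 of 37 members, or 73%. The share was 18.2% of the 27305 genes of the promoter table and 13.2% of the 9604 expressed genes in it, where expressed means a level of -1 or more on the mock array (the scale is given with the results). Of 42 other mitotic effectors with a window, 24 held it, or 57.1%, against 2 of 35 DNA replication genes, or 5.71%. CCAAT or ATTGG was found in 28 members, or 75.7%, beside 39.7% of all genes and 43.3% of the expressed genes. TTTAAA, a variant of the cell cycle homology region that is its own other strand, was found in 12 members, or 32.4%, beside 14.5% and 10.3%. The letters GGCGGG or CCCGCC of a GC box were in 33 members, or 89.2%, beside 48.3% and 76.3%, but in a window of 100 bases before to 50 after the start they were in 56.8% of members, below the 63.7% of expressed genes. Matches of different letters may overlap, and a match is a description of the window and not a site of binding.

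The matches of the members lay close to the start site. Of the TTTGAA matches, 9 were in the 25 bases before the start and 7 in the 25 bases before those, which is 24.3 and 18.9 matches per 100 genes. The expressed genes had 0.54 and 0.90 per 100 genes there. Their bins hold fewer TTTGAA matches in all than the number of expressed genes behind the share above. Bins and shares thus do not cover the same windows, and their sizes cannot be compared. CCAAT matches were most frequent between -75 and -50, with 18 matches or 48.6 per 100 genes. That bin was also the highest of the expressed genes, at 10.7 per 100 genes, so this position is not particular to the members. The members with TTTGAA were not all lower with the drugs. The 27 members with it had median differences from mock of -0.41, -0.35 and -0.61 (log2, in the order DAC, OR-2003, OR-2100, kept throughout), and the 10 without it had -0.15, -0.19 and -0.48. CCNA2, CCNB1, BUB1, SPC24, CENPE, KIF2C, AURKB, KIF20A, NCAPH and PTTG1 were the members without it. No test was made of this split.

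Levels are log2 intensities on a scale where 0 is the 75th percentile of an array's gene probes, and a level of -1 or more counts as positive expression. A level of a gene is compared only with the level of the same probe on another array. On the mock array 42 of the 43 genes had a level of -1 or more, the exception being NCAPH, and on each drug array there were 41, without NCAPG and NCAPH. Between 31601 and 33282 probes were well above background per array, and no spot was saturated. The error that the scanner software attaches to a difference between 2 arrays had a median of 0.20 (log2) over the genes of the list, and the spots of probes that were printed 10 times had a median SD of 0.0591 to 0.0668 (log2), both of which cover the array only and not the spread between cultures. Colon epithelial markers were present, with 6 of 7 at -1 or more on each array and VIL1 not well above background with mock. EPCAM, an epithelial adhesion protein, was lower than mock with every drug, 2.81-fold with DAC, 2.88-fold with OR-2003 and 2.74-fold with OR-2100, as was CDH1 (E-cadherin), by 2.13-fold, 2.27-fold and 2.37-fold in the same order, while the keratins KRT8, KRT18 and KRT19 were higher than mock by 0.31 to 0.59 (log2). Of 6 markers of blood, endothelium and fibroblasts, 1 (COL1A1) reached -1 on the mock array and 2 (VWF and COL1A1) did so on each drug array. Their summed linear level, with the 75th percentile as 1, was 2.82 with mock and 6.01 to 6.45 with the drugs. The part of either marker list in the results was not tested. As a check of the treatment, SFRP1, a Wnt antagonist that is silenced in HCT116 cells, had levels of -3.82, -0.59, -0.71 and -0.43 on the mock, DAC, OR-2003 and OR-2100 arrays. UCHL1, another silenced gene, was not well above background with mock and had levels of 6.61, 6.77 and 6.69 with the drugs.

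Most of the mitosis genes had a lower level with each drug than with mock, and the differences were modest. The median difference of the 43 genes was -0.36 with DAC, -0.35 with OR-2003 and -0.59 with OR-2100 (log2, drug minus mock). Expressed genes as a whole also had a negative median, -0.23, -0.23 and -0.27 for the 12106 genes, so that relative to them the mitosis genes stood at -0.13, -0.12 and -0.32. In all, 33, 33 and 39 members were lower than mock, beside 65.9%, 66% and 68.6% of the expressed genes, and 32 were lower with all 3 drugs, which was the case for 62.2% of expressed genes. AURKA, INCENP, ANLN and CDC20 were higher with all 3 drugs, beside 3442 of the 12106 expressed genes. INCENP with OR-2100 and ANLN with OR-2003, however, turned to slightly below mock under another scaling. Over all 9 settings of processing, which differ in scaling, background correction and choice of spots and probes, 27 members were lower than mock in every setting with DAC, 24 with OR-2003 and 32 with OR-2100, and 6, 4 and 3 were higher in every setting. The same count was not made over the expressed genes, so these numbers have no background to be set against. In extracts of whole cultures, fewer cells in mitosis and less of these RNAs per cell cannot be told apart.

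At least 2-fold lower were 3 members with DAC, 4 with OR-2003 and 9 with OR-2100, of the 42 that could be counted. That was the case for 12.3%, 12.5% and 14.1% of the expressed genes, so that the share of members was below the background with DAC and OR-2003, at 7.14% and 9.52%, and above it with OR-2100, at 21.4%. At least 1.5-fold lower were 12, 13 and 22 members, or 28.6%, 31.0% and 52.4%, beside 27.8%, 28.3% and 30.5% of the expressed genes. The DAC and OR-2003 shares were near the background. No member was at least 1.5-fold higher with any drug, beside 17.6%, 17.8% and 17.6% of the genes that were expressed on the drug array. Those shares include genes below -1 with mock. Among the 12106 genes expressed with mock, as 42 of the members were, 1199, 1210 and 1158 were at least 1.5-fold higher. Under other scalings up to 2 members with DAC and 3 with OR-2003 passed this fold. BUB3, KIF18A and NCAPG were at least 2-fold lower with all 3 drugs, as were 1304 of the 12106 expressed genes. The counts depend on the scaling, and with the 75th percentile taken over probes well above background 1 member was at least 2-fold lower with each drug.

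**Figure D1:**
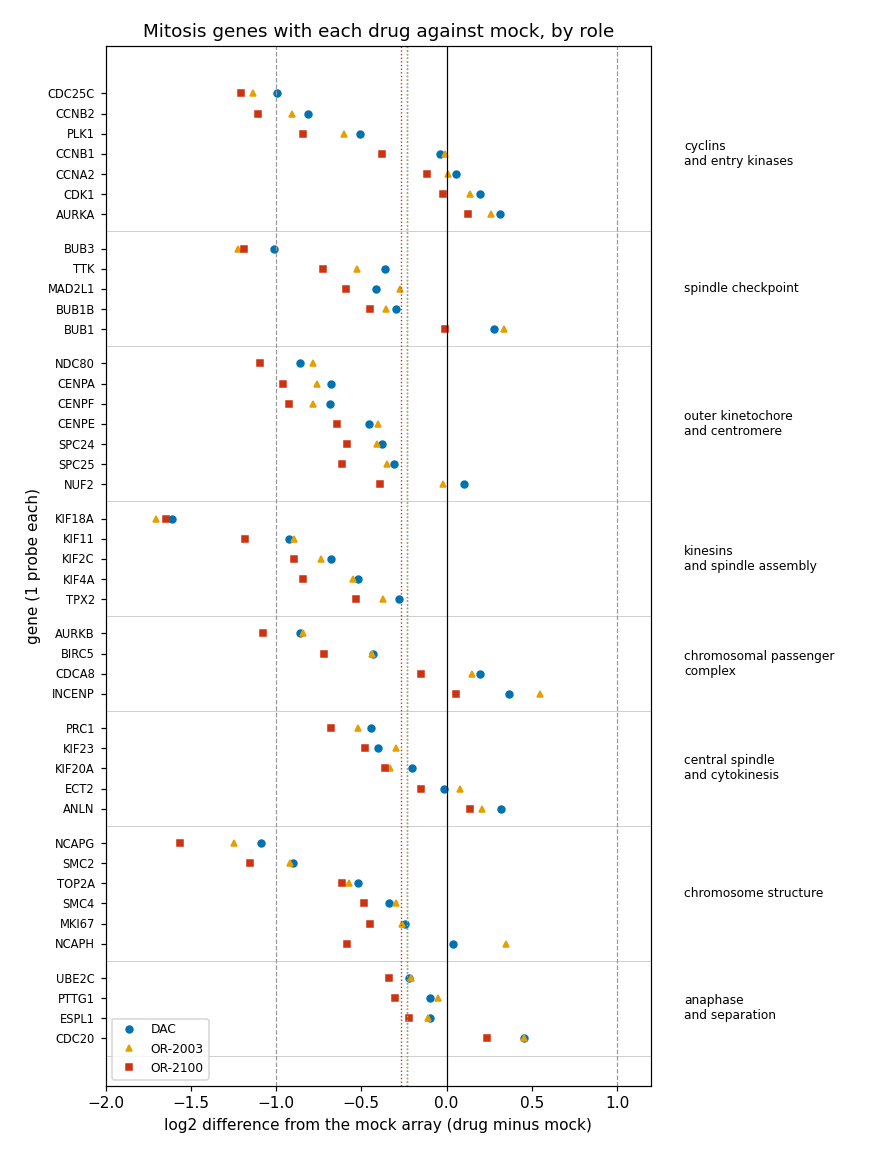
Log2 difference from the mock array (horizontal axis) for the 43 genes (vertical axis, 1 probe each) grouped by role, with DAC (blue circles), OR-2003 (orange triangles) and OR-2100 (red squares). Dashed lines mark 2-fold, dotted lines the medians of expressed genes at -0.23 to -0.27, and the red square of a gene lies to the left of its blue circle in all 43 rows.

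The cyclins and kinases that start mitosis did not share a direction. CDC25C, the phosphatase that activates CDK1, had levels of 1.19, 0.19, 0.05 and -0.02 on the mock, DAC, OR-2003 and OR-2100 arrays, and CCNB2, a B-type cyclin, had 5.38, 4.57, 4.47 and 4.27. Both were highest with mock and lowest with OR-2100, at 2.30-fold and 2.16-fold below mock. OR-2100 minus OR-2003 was only -0.07 for CDC25C and -0.20 for CCNB2, and the sign of both changed with the scaling. PLK1, a kinase of mitotic entry and spindle assembly, was 1.42-fold, 1.52-fold and 1.79-fold lower. In contrast, CDK1 itself had levels of 3.09, 3.28, 3.22 and 3.07, and CCNA2, the cyclin of S and G2 phase, had 1.57, 1.63, 1.58 and 1.45, with differences of at most 0.19 in size, which are within the software error. CCNB1, the main partner of CDK1, had 4.93, 4.89, 4.92 and 4.55. On this probe only the OR-2100 level stood apart. Another CCNB1 probe, also well above background on every array, differed from mock by -0.74, -0.78 and -1.02. The much dimmer other probe of CDK1 was lower than mock with every drug as well. AURKA, the kinase of centrosome maturation, had 2.19, 2.50, 2.45 and 2.32, higher than mock by 0.13 to 0.31. The median of the 7 genes was -0.04, -0.01 and -0.38, and for DAC and OR-2003 its sign changed with the scaling. Over the 9 settings, which include the mean over all probes of a gene, it ran from -0.39 to 0.19 with DAC and from -0.40 to 0.29 with OR-2003.

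Among the genes of the spindle checkpoint, 4 of 5 were lower than mock with all 3 drugs. BUB3, which brings BUB1 and BUBR1 to the kinetochore, had levels of 5.67, 4.65, 4.44 and 4.48, or 2.02-fold, 2.34-fold and 2.28-fold lower. A different probe of BUB3 gave 3.91, 3.76, 3.72 and 3.61, with the same direction but differences of -0.15, -0.19 and -0.30, so that the size of the BUB3 difference depends on the probe. TTK, the MPS1 kinase that starts the checkpoint signal, had 1.20, 0.84, 0.67 and 0.47. MAD2L1, which inhibits CDC20, differed from mock by -0.41, -0.27 and -0.59 (log2), and BUB1B, the gene of BUBR1, by -0.30, -0.35 and -0.45. BUB1, the kinase that marks centromeres for shugoshin, was the exception, with levels of 2.65, 2.93, 2.99 and 2.65. Its DAC and OR-2003 arrays were above mock by 0.28 and 0.33, and its OR-2100 array was level with mock.

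All 7 genes of the outer kinetochore and centromere were lower with OR-2100 than with mock. NDC80, the microtubule-binding subunit of the complex named after it, had levels of 4.26, 3.40, 3.48 and 3.17, and its partner NUF2 had 1.57, 1.67, 1.55 and 1.19. NDC80 was thus 1.82-fold, 1.72-fold and 2.13-fold lower, while NUF2 differed from mock by 0.10, -0.02 and -0.39 (log2). The other pair of the complex, SPC24 and SPC25, differed by -0.41 to -0.31 with DAC and OR-2003 and by -0.59 and -0.61 with OR-2100. CENPA, the histone H3 variant that defines the centromere, had 0.95, 0.27, 0.19 and -0.01. CENPF, a large protein of the outer kinetochore, had differences of -0.69, -0.78 and -0.92, and CENPE, the kinesin that carries chromosomes to the equator, of -0.45, -0.40 and -0.64. The group median was -0.45, -0.41 and -0.64 and lay below that of expressed genes in all 9 settings of processing. A setting that only rescales an array moves both medians together and could hardly change this order, here and in the groups below.

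The kinesins and TPX2 had the lowest group median, at -0.68, -0.74 and -0.89. KIF18A, the kinesin that dampens chromosome oscillations at the metaphase plate, had levels of 1.65, 0.04, -0.06 and 0.01, or 3.05-fold, 3.26-fold and 3.12-fold lower, and the 3 drug arrays were within 0.10 of each other. KIF11, the motor that pushes the spindle poles apart, had 2.18, 1.25, 1.28 and 0.99. KIF2C, which depolymerizes microtubules at the centromere, was 1.60-fold, 1.67-fold and 1.86-fold lower, and KIF4A, a chromosome-bound kinesin, 1.43-fold, 1.46-fold and 1.80-fold. TPX2, an activator of AURKA on the spindle, had 3.74, 3.46, 3.36 and 3.20, which made it the gene of the group nearest to mock. All 5 genes were below the median of expressed genes with each drug, and the group median minus theirs was -0.38 or lower in all 9 settings.

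The chromosomal passenger complex was split. AURKB, its kinase, had levels of 1.64, 0.78, 0.80 and 0.56, or 1.81-fold, 1.80-fold and 2.11-fold lower. BIRC5 (survivin), which docks the complex on chromatin, had 6.22, 5.79, 5.78 and 5.51. INCENP, the scaffold that activates AURKB, instead had 1.28, 1.65, 1.83 and 1.34, and CDCA8 (borealin) had 4.57, 4.77, 4.72 and 4.42. INCENP was above mock by 0.37 with DAC, 0.55 with OR-2003 and 0.05 with OR-2100, the last of which is within the software error and turns to -0.03 under another scaling. AURKB and AURKA, the related Aurora kinases, thus differed from mock in opposite directions on every drug array. For AURKA with OR-2100, however, the difference of 0.13 was within the software error.

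In the central spindle and cytokinesis group, PRC1, which bundles antiparallel microtubules, had levels of 4.95, 4.50, 4.43 and 4.27, and KIF23, the kinesin of the centralspindlin complex, had 4.35, 3.94, 4.05 and 3.87. Both were lower than mock with all drugs. KIF20A, which brings AURKB to the central spindle, differed by -0.20, -0.33 and -0.36, and ECT2, the activator of RHOA at the cleavage furrow, by -0.01, 0.08 and -0.15. ANLN (anillin), a scaffold of the contractile ring, had 0.81, 1.13, 1.02 and 0.95, so that mock was lowest, and its OR-2003 difference of 0.21 turned to -0.01 when the median of all probes was used for scaling. No gene of this group was 2-fold lower, and PRC1 alone was 1.5-fold lower, with OR-2100.

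Genes of chromosome structure included the condensin I subunit NCAPG, with levels of -0.38, -1.46, -1.62 and -1.94, or 2.12-fold, 2.37-fold and 2.95-fold lower. Its partner NCAPH was below -1 on every array, at -3.19, -3.15, -2.84 and -3.77, with no common direction. SMC2, the ATPase shared by both condensins, had 1.04, 0.14, 0.12 and -0.11, but a weaker probe of SMC2 had -1.32, -0.94, -1.15 and -1.27, higher than mock by 0.38, 0.17 and 0.05. SMC4, its partner, also had probes that disagreed, with differences of -0.34, -0.30 and -0.48 for the brighter probe and 0.21, 0.23 and 0.08 for the other. TOP2A, topoisomerase II alpha, was 1.44-fold, 1.49-fold and 1.53-fold lower. MKI67, the gene of the proliferation marker Ki-67, had 2.49, 2.24, 2.23 and 2.04, and its other probes differed more, by -0.63, -0.61 and -0.73 and by -0.69, -0.69 and -0.92.

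The genes of anaphase and separation were close to mock. CDC20, the checkpoint-controlled activator of the anaphase-promoting complex, had levels of 2.92, 3.37, 3.37 and 3.15, which made it the gene with the largest positive mean difference of the list, at 0.46, 0.46 and 0.24. UBE2C, the ubiquitin-conjugating enzyme of that complex, had 5.52, 5.30, 5.31 and 5.18, and PTTG1 (securin) had 6.37, 6.27, 6.32 and 6.07. ESPL1 (separase) differed from mock by -0.10, -0.11 and -0.22. None of the 4 was 1.5-fold away from mock with any drug, and the group median of -0.10, -0.08 and -0.26 was above that of expressed genes in all 9 settings with DAC and OR-2003, while with OR-2100 it lay from -0.02 to 0.12 around it.

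With DAC 19 members were lower than mock by more than 2 times the software error, with OR-2003 18 and with OR-2100 27, beside 38.2%, 38.2% and 40.6% of the expressed genes, and 1, 2 and 0 were higher by as much, beside 14.4%, 14.3% and 13.7%. The 43 genes had 54 probes, with 1 probe for 33 genes and more for 10. Of the 11 other probes, 9 were lower than mock with all 3 drugs, the exceptions being those of SMC2 and SMC4. The probes of CCNB1 also disagreed in size, since its other probe had 3.16, 2.41, 2.37 and 2.14 and differed from mock by -0.74, -0.78 and -1.02, where the brighter probe differed by -0.04, -0.01 and -0.38. For CDK1 the other probe, at -3.15, -3.89, -3.84 and -4.50, was well above background on 3 arrays and lower than mock on all. The probes of a gene can read different transcripts, and the part of this in the disagreements was not tested.

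Spots printed 10 times gave the spread on the array for CCNA2, CDK1, CENPE, INCENP and BIRC5. The unmarked CENPE spots ran from 1.63 to 1.74 with mock, from 1.06 to 1.33 with DAC, from 1.19 to 1.36 with OR-2003 and from 0.94 to 1.14 with OR-2100. All mock spots of CENPE thus lay above all drug spots. BIRC5 spots ran from 6.12 to 6.28 with mock, from 5.72 to 5.86 with DAC, from 5.67 to 5.86 with OR-2003 and from 5.38 to 5.61 with OR-2100. On this scaling OR-2100 thus lay apart from both other drugs. Over the 9 settings its BIRC5 level minus that of OR-2003 ran from -0.32 to 0.01, so the gap to OR-2003 depends on the scaling. INCENP spots had medians of 1.29, 1.68, 1.86 and 1.32 in the same order, and the OR-2100 spots, at 1.22 to 1.47, overlapped those of mock and not those of the other drugs. For CDK1 and CCNA2 the spots of mock overlapped those of every drug. Spots of 1 array share the same RNA and are not replicates of the condition.

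The 3 drugs, given at the same dose and for the same time, were compared in 3 pairs. The mitosis genes had lower levels with OR-2100 than with DAC in 43 of 43 genes, as did 66.1% of the expressed genes, with a median difference of -0.22 and a range of -0.62 to -0.03 (log2). In 40 genes the difference was 0.1 or more in size, beside 34.7% of the expressed genes, whose median was -0.05. OR-2100 was also lower than OR-2003 in 41 genes, beside 63.7% of the expressed genes, by a median of -0.20 with a range of -0.93 to 0.06, and by 0.1 or more in 36, beside 33.9% of the expressed genes. OR-2003 and DAC were closer, with 29 genes lower with OR-2003 beside 51.8%, a median of -0.04, a range of -0.21 to 0.31, and 7 genes lower by 0.1 or more beside 16.6%. No interval between cultures can be given for these differences. All 54 probes of the members were lower with OR-2100 than with DAC. This was counted on the main scaling only, and no share over all probes was counted beside it. The 11 other probes read the same genes on the same arrays, so they are not separate evidence.

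The genes with the lowest OR-2100 level relative to DAC were NCAPH at -0.62, NUF2 at -0.49, NCAPG at -0.48 and TTK at -0.36. NCAPH, however, was below -1 on every array and had a software error of 0.35. Its difference ran from -0.62 to 0.02 over the 9 settings. At the other end, KIF18A at -0.03, KIF23 at -0.07 and TOP2A at -0.09 had nearly the same level with both drugs. The difference was larger than 2 times the software error in 2 of the 43 genes, NUF2 and NCAPG, beside 0.636% of the expressed genes. The size and sign of the differences between drugs depended on the scaling, which moves all genes of an array together. With spike-in probes as the scale, the median of OR-2100 minus DAC was -0.08, with 37 genes lower, and that of OR-2100 minus OR-2003 was 0.08, with 10 genes lower. Relative to the median of the expressed genes, the mitosis genes were lower with OR-2100 in all 9 settings, with medians of -0.17 to -0.15 against DAC and -0.16 to -0.12 against OR-2003. Settings that only rescale an array move the members and the expressed genes together, so they could hardly change this relative median and do not test it. For OR-2003 minus DAC this relative median was -0.05 to -0.03. Other lists went the same way, housekeeping genes included, with 37 of 53 other mitotic effectors lower by 0.1 or more with OR-2100 than with DAC (median -0.16), 27 of 42 DNA replication genes (-0.14) and 8 of 14 housekeeping genes (-0.11).

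**Figure D2:**
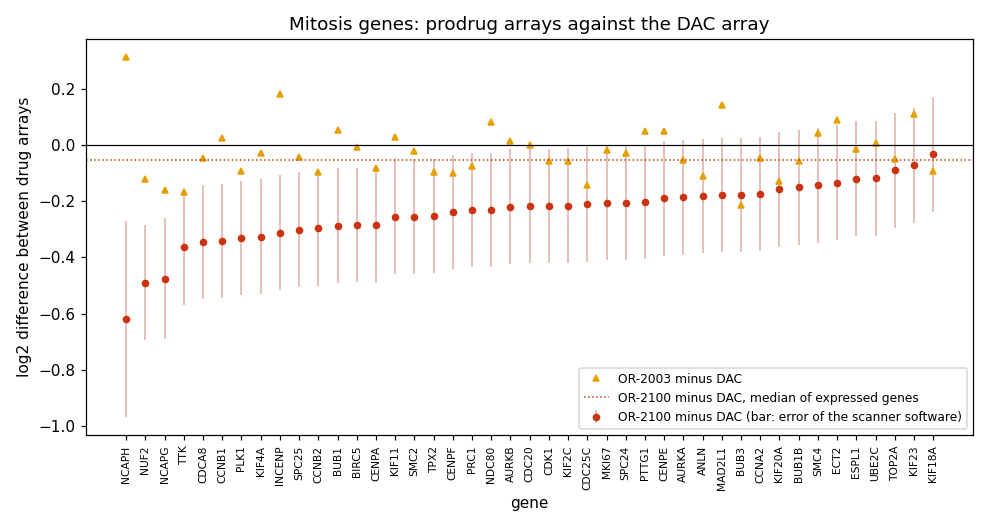
Log2 difference between drug arrays (vertical axis) for each of the 43 genes (horizontal axis, ordered by OR-2100 minus DAC), with red circles for OR-2100 minus DAC and bars for the error of the scanner software, and orange triangles for OR-2003 minus DAC. All red circles lie below 0, from -0.62 for NCAPH, a gene below -1 on every array, to -0.03 for KIF18A. The dotted line marks the median of expressed genes at -0.05.

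Other genes of the pathway were read from lists of their own. Of the 53 other mitotic effectors, the median was -0.26, -0.26 and -0.42, and 12, 16 and 22 were at least 1.5-fold lower among the 51 that were expressed with mock. That is 23.5%, 31.4% and 43.1%, beside 27.8%, 28.3% and 30.5% of the expressed genes. CDC25B, a CDK1-activating phosphatase like CDC25C, had levels of 4.86, 3.39, 3.33 and 3.29, or 2.77-fold, 2.90-fold and 2.96-fold lower. KIF15, a motor that assists KIF11, had 1.94, 0.45, 0.62 and 0.25. CDC25A, the third phosphatase of that family, went the other way, with 0.37, 1.38, 1.37 and 1.28. The 3 CDC25 genes thus did not share a direction.

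The core of the anaphase-promoting complex, 15 genes, had a median of -0.27, -0.26 and -0.31, close to that of expressed genes. ANAPC16 stood apart with levels of 1.73, -0.29, -0.24 and -0.41, or 4.06-fold, 3.94-fold and 4.41-fold lower, and ANAPC15, also of the complex, differed from mock by -0.54, -0.36 and -0.66, whereas FZR1, the activator that replaces CDC20 after anaphase, had 2.09, 2.42, 2.50 and 2.43. Cohesin genes (12) had a median of -0.38, -0.39 and -0.47, with STAG2, a core subunit, at 2.61, 1.77, 1.65 and 1.78, and PDS5B, which regulates its release, at -0.10, -1.08, -1.07 and -1.32. ESCO2, a cohesin acetyltransferase, had 0.27, 0.43, 0.41 and 0.12. Of the 4 other condensin subunits, NCAPD2, the partner of NCAPG in condensin I, had 5.84, 5.21, 5.20 and 4.93, NCAPD3 of condensin II had 2.84, 2.34, 2.36 and 2.37, and NCAPG2, also of condensin II, had 0.68, 0.90, 0.86 and 0.69. The constitutive centromere network (15) had a median of -0.15, -0.11 and -0.27, with CENPK at 0.18, -0.62, -0.76 and -0.74, CENPS at 2.66, 2.10, 2.08 and 1.84, and CENPP at -0.30, 0.10, 0.07 and 0.17.

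Among 16 regulators of late cell cycle genes, FOXM1, the forkhead activator of this program, had levels of 1.52, 0.88, 1.08 and 0.90, which was 1.56-fold, 1.36-fold and 1.54-fold lower. MYBL2 had 0.60, 0.38, 0.51 and 0.38. The DREAM subunit E2F4 had 1.41, 0.89, 0.82 and 0.96 and LIN9 had 1.97, 1.56, 1.65 and 1.43, while LIN37 had 2.67, 2.74, 2.92 and 2.95 and LIN54 had 1.02, 1.16, 1.09 and 0.89. CDKN1A, the p21 inhibitor of cyclin-dependent kinases, had 0.17, 1.43, 1.36 and 1.39, or 2.39-fold, 2.29-fold and 2.32-fold higher. CDKN1B (p27), another such inhibitor, differed from mock by -0.67, -0.73 and -0.80, and RBBP4, a histone-binding subunit of DREAM, by -0.68, -0.61 and -0.76. The DNA replication genes, 42 in number, had a median of -0.24, -0.21 and -0.42, with 2, 4 and 12 at least 1.5-fold lower among the 39 expressed with mock. These shares, 5.13%, 10.3% and 30.8%, stand beside 27.8%, 28.3% and 30.5% of the expressed genes. POLA1, the primase-bound polymerase, had 2.46, 1.40, 1.45 and 1.33, RFC5, of the clamp loader, had 4.54, 3.71, 3.75 and 3.53, and CCNE1, the cyclin of S phase entry, had 4.39, 5.30, 5.24 and 5.18. The median of the mitosis list minus that of the replication list was -0.12, -0.14 and -0.17, and minus that of the other mitotic effectors it was -0.10, -0.09 and -0.16.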

How the data were processed

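Total RNA of HML58-3 cells was measured on 4 single-colour arrays, 1 per condition. The files deposited by the authors give, for every spot, an intensity from which Feature Extraction 12.1.0.3 had removed the background, with no normalization between arrays, and a series table held the same intensity for all 62976 spots. Of these, 60901 are gene spots of 58201 probes. Spots marked as non-uniform or as outliers (52 to 98 per array) were left out, the log2 values of the spots of a probe were averaged, and the 75th percentile of each array was set to 0, as in the methods of the study. The log2 scale was computed here from the deposited intensity. All arrays were on the same slide and from 1 scan run, and their number limits the precision.

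By the accessions in the design, 34892 probes were matched to the RefSeq gene table of GRCh38.p14. A probe counted as well above background if the software said so of more than 0.5 of its unmarked spots. The probe with the highest mean signal represents a gene. The members, the gene lists and the rules were chosen with earlier results of these data known. Values on all arrays are given for the 2 lowest and the 1 highest member of each role by mean difference, for members 2-fold away from mock and for members whose probes differ by over 1 (log2). Of each other list the 2 lowest and the highest expressed genes are named, together with FOXM1, MYBL2, CDKN1A, E2F4, LIN9, LIN37, LIN54, UCHL1 and SFRP1, and more members were named to account for each role. MCM3 of the replication list was not matched, and 2 genes of other lists are not reported here. No test between conditions was run, since each has 1 array. The counting was tested on simulated data.

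Alternatives were a 75th percentile over the probes that are well above background, the median of gene probes, 9 of 10 spike-in probes in the linear range, quantile normalization, normexp with an offset of 50 (run on the deposited median intensity of a spot), the series table, marked spots kept, the mean over probes, no level threshold and a promoter window of 150 bases. Python 3.11.15, numpy 2.4.6, pandas 2.3.3, R 4.3.3 and limma 3.58.1 were used.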

Additional observations from a re-analysis of the deposited data

How the results depend on the processing

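No paired analysis was possible because there is 1 array for each condition, which also leaves no replicate to leave out. Of the 10 alternatives, 8 bear on the differences, and under these the median difference of the 43 genes from mock stayed below 0 with each drug. None of the 86 values of named genes that were 1.5-fold or more away from mock turned its direction. Shifts of the size seen between scalings could hardly turn values so far from mock, so this is a weak check. Among all 43 members the direction varied between settings for 10 with DAC, 15 with OR-2003 and 8 with OR-2100. When the 75th percentile was taken over bright probes (those well above background), the medians were -0.13, -0.0575 and -0.33 for DAC, OR-2003 and OR-2100, 7, 5 and 11 members were 1.5-fold lower, 1 each was 2-fold lower, and 2 with DAC and 3 with OR-2003 were 1.5-fold higher. Scaling by the median of all gene probes gave -0.48 for DAC and -0.58 for OR-2003, 21 members 1.5-fold lower with OR-2003, 6 and 10 members 2-fold lower with DAC and OR-2003, and differences between drugs of -0.15 for OR-2003 minus DAC and -0.0675 for OR-2100 minus OR-2003. Spike-in scaling gave -0.45 for OR-2003 and -0.39 for OR-2100, 14 members 1.5-fold and 3 members 2-fold lower with OR-2100, and differences between drugs of -0.19 (OR-2003 minus DAC), -0.0763 (OR-2100 minus DAC) and 0.0842 (OR-2100 minus OR-2003). Quantile normalization gave medians of -0.18, -0.19 and -0.40, 5 members 2-fold lower with OR-2100, and 1 and 2 members 1.5-fold higher with DAC and OR-2003. Normexp gave -0.48 for OR-2100, with 2 members 2-fold lower with OR-2003 and 5 with OR-2100. In a window of 150 bases 21 members held GGCGGG, or 56.8% beside 63.7% of expressed genes, the opposite order from the longer window. The median of expressed genes ran from -0.34 to -0.03 with DAC, from -0.41 to 0.04 with OR-2003 and from -0.35 to -0.05 with OR-2100. Relative to it the mitosis genes had medians of -0.14 to -0.07, -0.16 to -0.08 and -0.34 to -0.28. Rescaling alone could change these relative medians little, since it moves members and expressed genes together. The cause of the shifts between settings was not tested. With expressed genes taken at 0 or more, chosen after seeing the data, 35.5% of them were lower by 0.1 or more with OR-2100 than with DAC.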
